A study of Mus musculus with 6 samples.

Results

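The genes described here make, release and receive the secreted Wnt and R-spondin signals of the liver, and they were chosen by name, as a list of 10: the ligand genes Wnt2, Wnt9b, Wnt4, Wnt5a and Wnt11, the R-spondin genes Rspo1 and Rspo3, the secretion genes Wls and Porcn, and the R-spondin receptor gene Lgr4. All 10 were found by symbol among the 54446 genes measured, and all 10 passed the filter on low counts. Wnt11 and Rspo1 passed it only through their week 2 libraries. The data are poly-A RNA sequencing of 6 mouse liver cell samples, 2 from each of weeks 0, 2 and 7 of a treatment named MET/CAT with SB transposase in the title. Transposases are enzymes that insert a DNA element into chromosomes, and the labels do not expand CAT. All 6 samples are labelled as mouse lines mixed from FVB/N and a C57BL strain, written C57BL/6 for week 0 replicate 1. The number after the slash rises by 2 from each sample to the next, up to C57BL/16, so the background of the other samples is unsure. The labels give no age, sex, route or dose, no pooling of animals and no untreated group at weeks 2 and 7, so treatment and time cannot be told apart. They do not say that replicates are separate mice, so p-values measure the spread between these samples, which may be technical.

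Wnt proteins are lipid-modified in the endoplasmic reticulum by the acyltransferase Porcn and carried to the cell surface by the transport protein Wls. They bind Frizzled receptors and Lrp5 or Lrp6 coreceptors on a receiving cell, which stabilises beta-catenin. R-spondins bind Lgr receptors and remove the ubiquitin ligases Znrf3 and Rnf43, which otherwise clear Frizzled from the surface. In liver, endothelial cells around the central vein are known for Wnt2, Wnt9b and Rspo3, and the hepatocytes next to them for beta-catenin target genes such as Glul.

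Library totals ran from 49353453 to 58434358 deposited counts. Of values from 4 to 43, 68.3% to 69.6% in a library were a multiple of 4 or 1 above it, more than an even spread would give. Read pairs below are counts divided by 4, an assumption from this pattern, which the other values did not show. The hepatocyte gene Alb had 54070 to 98368 CPM in every library and the sinusoidal endothelium gene Stab2 39.7 to 48.5. The female transcript Xist had 13236 and 12804 counts in the week 2 libraries, which held 0 counts of Ddx3y, Uty, Kdm5d and Eif2s3y, all on the Y chromosome. The week 0 and week 7 libraries had 0 to 15 Xist counts and 1897 to 2303 Ddx3y counts. Week 2 was therefore typed as female and the other weeks as male, and time and sex cannot be told apart in any comparison with week 2. Levels below are TMM-scaled CPM, that is counts scaled to a common library size with edgeR's TMM factors, and a call is an edgeR quasi-likelihood adjusted p under 0.05 over the 15368 genes tested.

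Of 30 tests of the 10 genes over the 3 comparisons, 3 were calls. Wnt4 fell 3.64-fold between week 0 and week 7, Wnt11 was higher at week 2 than at week 0, and Wls was 1.85-fold lower at week 7 than at week 2. Each of these calls was lost when certain single libraries were left out, as given below. The call on Wnt11 rests on the week 2 counts through which it passed the filter. From week 0 to week 7 all 12 genes of a list of beta-catenin targets rose, with a median log2 fold change of 2.32, against 0.002 over all genes tested. Those targets are not independent of earlier results of these data. In the same comparison 0 of the 10 signal genes rose and 1 fell, where 7.58% of all genes were called higher, 6.23% lower and 13.8% in either direction. The 8 genes with counts in every library had a median log2 fold change of 0 there, with 4 above and 4 below 0.

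**Figure D1:**
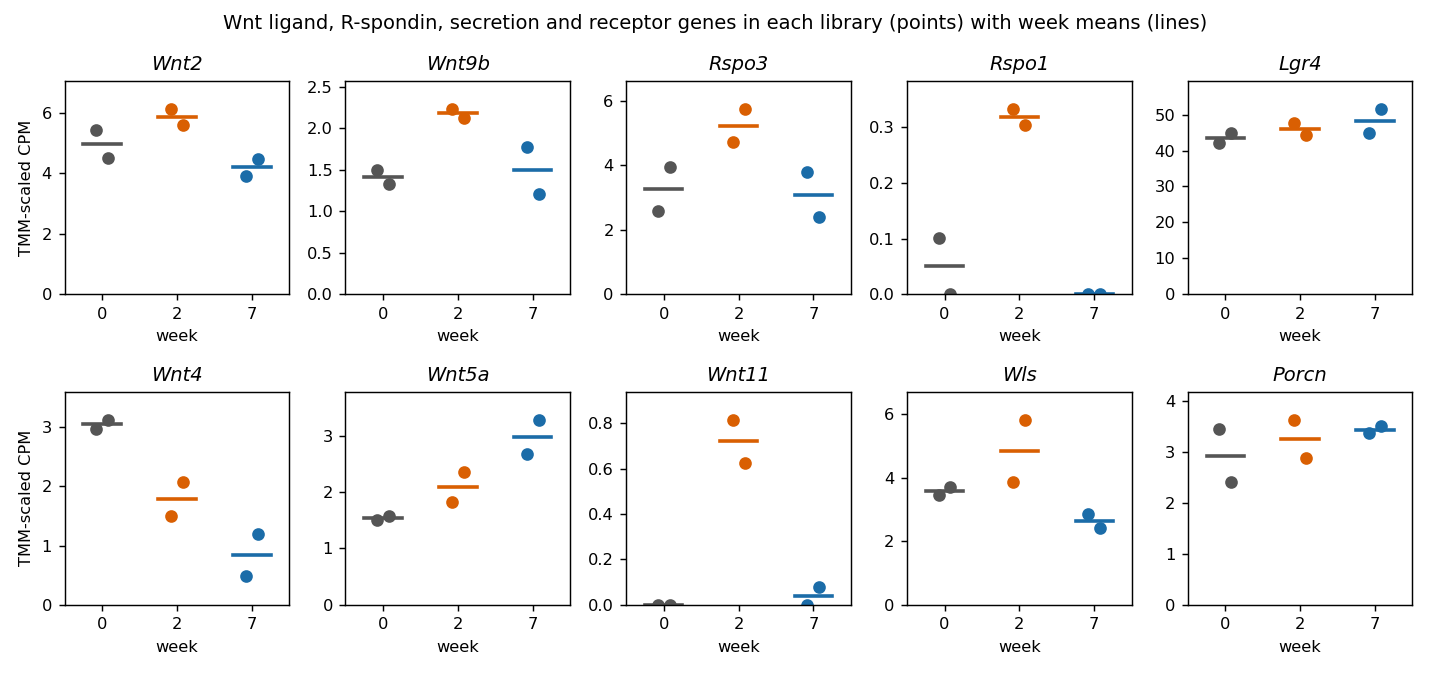
Each panel plots 1 gene against the week, with TMM-scaled CPM on the vertical axis from 0, points for the 2 libraries of a week and a line for their mean. Wnt4 sits highest at week 0 and Wnt5a at week 7, Wnt11 and Rspo1 have most of their counts at week 2, and the Lgr4 points stay between 42.3 and 51.7 CPM.

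The promoters of the 3 genes with a call are shown because they are the places where TCF and LEF factors, the DNA-binding partners of beta-catenin, could be looked for. The sequences are RefSeq's for GRCm38.p6, plus strand, 5′ to 3′, and end at the last base before the start site or before the first exon in GENCODE M21. The motifs CTTTGAA and CTTTGAT were searched on both strands in the 250 bases before the start site. These motifs share their first 6 letters, so they cannot both match at 1 position on the same strand. Capitals mark a match. The windows are chr4:137277385-137277488 for Wnt4, chr7:98834862-98835111 for Wnt11 and chr3:159839400-159839649 for Wls.
Wnt4: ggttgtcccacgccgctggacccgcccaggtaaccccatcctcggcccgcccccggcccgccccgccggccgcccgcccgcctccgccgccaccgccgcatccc
Wnt11: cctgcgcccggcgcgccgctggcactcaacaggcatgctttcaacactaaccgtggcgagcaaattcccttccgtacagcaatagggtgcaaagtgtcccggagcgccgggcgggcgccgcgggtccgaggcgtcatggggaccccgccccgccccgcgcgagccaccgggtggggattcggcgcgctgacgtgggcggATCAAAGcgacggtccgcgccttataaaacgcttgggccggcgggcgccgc
Wls: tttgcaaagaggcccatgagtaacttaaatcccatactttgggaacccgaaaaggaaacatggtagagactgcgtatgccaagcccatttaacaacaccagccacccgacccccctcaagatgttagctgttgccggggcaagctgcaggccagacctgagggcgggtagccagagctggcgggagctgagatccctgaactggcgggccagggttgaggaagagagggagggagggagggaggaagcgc
The Wnt11 window held 1 match, CTTTGAT on the minus strand, which begins 51 bases before the start site and reads ATCAAAG on the strand printed. The Wnt4 and Wls windows held 0. Entries were found for 7 of the 10 genes, 8 entries in all because Wnt11 has a pair of start sites, and 1 of the 8 held a match. Of all 32851 promoters that RefSeq gave here, 7.48% held at least 1.

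Wnt2, a ligand of endothelial cells, was the most abundant of the 5 Wnt genes of the list per length in every week. Deposited counts were 271 and 217 for week 0, 368 and 331 for week 2, then 211 and 229 for week 7. On the CPM scale these were 5.43 and 4.50, then 6.14 and 5.59, then 3.91 and 4.48. The week 2 libraries were above all others, and the week 7 libraries lay below both week 0 libraries, the nearest by 4.50 against 4.48. Its log2 fold change was -0.24 at week 7 against week 0 (95% interval -0.71 to 0.22, adjusted p = 0.512) and 0.24 at week 2 against week 0 (-0.22 to 0.70, adjusted p = 0.486). Both intervals leave out a change of 2-fold in either direction. At week 7 against week 2 it was -0.48 (adjusted p = 0.14).

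Wnt9b, the other ligand of central vein endothelium in the list, was scarcer. Week 0 had 75 and 64 counts, week 2 had 134 and 126, and week 7 had 96 and 62, which is 15.5 to 33.5 read pairs in a library. The week 2 values of 2.24 and 2.13 CPM were above those of the other weeks, and the week 7 values of 1.78 and 1.21 CPM enclosed the week 0 values of 1.50 and 1.33. Its log2 fold change was 0.08 at week 7 (95% interval -0.72 to 0.88, adjusted p = 0.925) and 0.62 at week 2 (-0.17 to 1.42, adjusted p = 0.274), each against week 0. Counting error alone was 17.3% to 25.4% of a library's value.

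Rspo3, the R-spondin of central vein endothelium, came next after Wnt2 per length among the secreted signals of the list in all 3 weeks. Its counts were 129 and 190 in week 0, 283 and 341 in week 2, then 204 and 122 in week 7. The week 2 libraries, at 4.72 and 5.76 CPM, were above the 2.58 and 3.94 CPM of week 0 and the 3.78 and 2.39 CPM of week 7, and these last groups overlapped. At week 2 against week 0 the log2 fold change was 0.68 ± 0.30 (SE, adjusted p = 0.166), and at week 7 against week 0 it was -0.08 (95% interval -0.78 to 0.62, adjusted p = 0.914). The spread between replicates was large. Without week 0 replicate 2 the week 7 value was 0.26, and without week 7 replicate 1 it was -0.45. Rspo1, a second R-spondin, had 5 and 0 counts in week 0, 20 and 18 in week 2 and none in either week 7 library, which is at most 5 read pairs in a library. Its differences were not called (adjusted p = 0.407, 0.371 and 0.116 for week 2 against 0, week 7 against 0 and week 7 against 2). The other 2 R-spondin genes, Rspo2 and Rspo4, had 0 counts in all 6 libraries, which allows up to 12 counts in each.

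Wnt4 was the gene of the list that fell from week 0 to week 7. The week 0 libraries held 148 and 151 counts, the week 2 libraries 90 and 123, and the week 7 libraries 26 and 61. In CPM these were 2.97 and 3.13, then 1.50 and 2.08, then 0.482 and 1.19, so that no week overlapped another. The log2 fold change at week 7 against week 0 was -1.86 ± 0.45 (SE, adjusted p = 0.0268). Adjusted p over the alternatives ran from 0.0051 to 0.098. Leaving out 1 library ended the call for week 0 replicate 1 (-1.90, adjusted p = 0.0811), week 0 replicate 2 (-1.82, 0.0898) or week 7 replicate 1 (-1.35, 0.098), the library with 26 counts. Week 2 against week 0 gave -0.77 (adjusted p = 0.271) and week 7 against week 2 gave -1.10 (adjusted p = 0.128, or -1.89 and 0.0339 without week 7 replicate 2).

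Wnt5a, a ligand best known for signalling without beta-catenin, lay the other way. The week 0 libraries had 75 and 76 counts, the week 2 libraries 109 and 139, and the week 7 libraries 144 and 168. The CPM values were 1.50 and 1.58, 1.82 and 2.35, and 2.67 and 3.29, again with no overlap between weeks. The log2 fold change at week 7 against week 0 was 0.95 ± 0.30 (SE), which missed the threshold (adjusted p = 0.0743, and 0.0561 to 0.269 over the alternatives). Within a library, where scaling cancels, the ratio of Wnt5a to Wnt4 counts was 0.507 and 0.503 in week 0, 1.21 and 1.13 in week 2, then 5.54 and 2.75 in week 7. This ratio was chosen after its values were seen, and it was not tested. In the counts of Wnt5a, Wnt11 and Rspo3, reads of an antisense gene that shares 358 to 404 exon bases could not be told apart, since the kit does not mark strand. Those antisense genes are listed at 0 in all libraries.

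Wnt11 was close to absent outside week 2. Neither week 0 library had a count, the week 2 libraries had 49 and 37, and the week 7 libraries 0 and 4, that is 12.25 and 9.25 read pairs in the week 2 libraries and 1 at week 7. The week 2 mean of 0.721 CPM was at least 2.95-fold above the week 0 floor of 0.245 CPM (12 counts, or 3 read pairs, in each library), and the difference was called (adjusted p = 0.0416). Wnt11 passed the filter only through the week 2 libraries, so this call draws on the same counts that let the gene be tested. The call was lost without any 1 of the week 0 and week 2 libraries (adjusted p = 0.114 to 0.201). With counts divided by 4 neither Wnt11 nor Rspo1 passed the filter. Week 7 against week 2 was not called (adjusted p = 0.116).

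**Figure D2:**
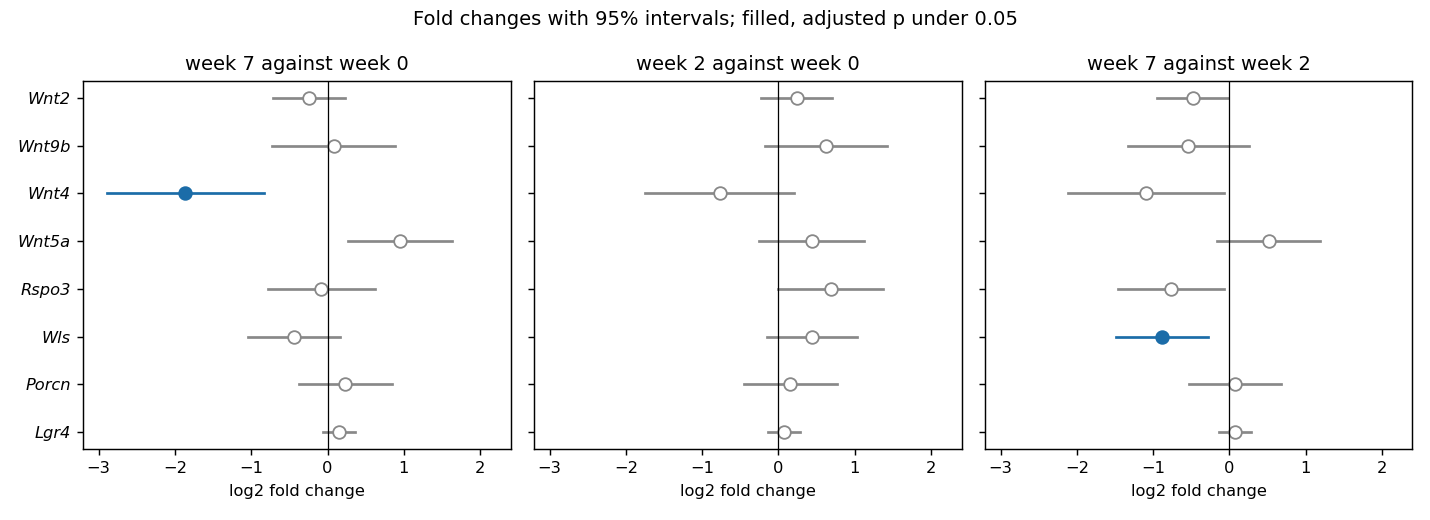
Log2 fold changes of the 8 genes with counts in every library are plotted with 95% intervals, 1 panel for each pair of weeks, and filled points have an adjusted p under 0.05. Wnt4 at -1.86 in the first panel and Wls at -0.89 in the third are the filled points, and the Lgr4 intervals are the narrowest.

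Of the secretion genes, Wls differed between weeks 2 and 7. Counts were 172 and 179 in week 0, 233 and 346 in week 2, then 154 and 123 in week 7, or 3.45 and 3.71, 3.89 and 5.84, and 2.85 and 2.41 CPM. The weeks did not overlap. At week 7 against week 2 the log2 fold change was -0.89 ± 0.26 (SE, adjusted p = 0.0462). In this comparison 6 of the 10 genes had an unadjusted p under 0.05, against 32.1% of all genes. Wnt11 and Rspo1 are among the 6 and passed the filter only through week 2, so this share is not independent of the filter. Wls missed the threshold when the fit left out week 2 replicate 2 (-0.56, adjusted p = 0.30), week 7 replicate 1 (-1.01, 0.102), week 7 replicate 2 (-0.77, 0.198) or either week 0 library (-0.89, 0.0598 and 0.0599). It was also lost in a fit to only the 4 libraries compared (0.0643). Against week 0 the differences of Wls were -0.44 at week 7 (adjusted p = 0.333) and 0.44 at week 2 (adjusted p = 0.297). In all, 1 of 10 genes was called lower at week 7 than at week 2, where 9.73% of all genes were, 10.1% were called higher and 19.8% in either direction.

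Porcn, the acyltransferase gene, had counts of 172 and 116 in week 0, 218 and 171 in week 2, then 182 and 179 in week 7. The ranges of the 3 weeks overlapped, at 3.45 and 2.41, 3.64 and 2.89, and 3.37 and 3.50 CPM. Its log2 fold changes were 0.23 at week 7 (95% interval -0.38 to 0.84) and 0.16 at week 2 (-0.45 to 0.77), each against week 0. Lgr4, the receptor of R-spondins in hepatocytes, was measured most precisely, with 2109 to 2857 counts in a library. Its CPM values were 42.3 and 44.9 in week 0, 47.6 and 44.3 in week 2, then 45.0 and 51.7 in week 7. The log2 fold changes of Lgr4 were 0.15 (95% interval -0.06 to 0.36, adjusted p = 0.352) at week 7 and 0.08 (-0.13 to 0.29, adjusted p = 0.644) at week 2, each against week 0.

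Levels of different genes were compared per kilobase of exon sequence. At week 0 the order in CPM per kb was Lgr4 (7.41), Wnt2 (2.20), Rspo3 (1.06), Porcn (0.975), Wnt4 (0.727), Wls (0.407), Wnt9b (0.313), Wnt5a (0.197), Rspo1 (0.0258) and Wnt11 (listed at 0). The libraries of neighbours in this order overlapped for Rspo3 and Porcn and for Rspo1 and Wnt11. At week 7 Wnt4 stood at 0.200 CPM per kb, below Wnt5a at 0.380, Wnt9b at 0.331 and Wls at 0.299. Porcn and Rspo3, and each neighbouring pair from Wnt5a to Wnt4, overlapped there. Lgr4 and then Wnt2 led the order in all 3 weeks without overlapping their neighbours.

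For the endothelial signals, the genes of at least 5 CPM whose 6 centred log2 values lay nearest were listed, by root mean square difference over the 6 libraries. For Wnt2 these were Smc4 and 9630013D21Rik, 0.0466 and 0.0467 away. For Wnt9b they were Itga8 (0.048) and BC037034 (0.0612), and for Rspo3 they were Nfam1 (0.136) and Snx12 (0.157). The distance describes 3 pairs of libraries among 9169 or 9170 candidates.

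Markers of the cells that make these signals were read beside them. Bulk RNA cannot tell fewer cells of a type from less RNA per cell. From week 0 to week 7, 0 of 8 sinusoidal endothelium markers rose and 1 fell, and 0 of 6 general endothelium markers were called. Their summed levels were 322 to 332 and 150 to 151 CPM at week 0, 395 to 419 and 188 to 195 at week 2, and 298 to 312 and 135 to 141 at week 7. In week 2 against week 0, 4 of 8 and 3 of 6 of them were higher and 0 lower. Wnt2 was at 1.69 and 1.36 CPM per 100 CPM of summed sinusoidal markers in week 0, 1.47 and 1.42 in week 2, then 1.31 and 1.44 in week 7. Rspo3 per 100 CPM of general endothelium markers was 1.73 and 2.61, 2.51 and 2.96, and 2.79 and 1.69, which overlapped between all weeks. The ratios were chosen after the values were seen. None of the 5 central vein endothelium markers, a list that holds Rspo3 and Wnt9b themselves, was called in any comparison.

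**Figure D3:**
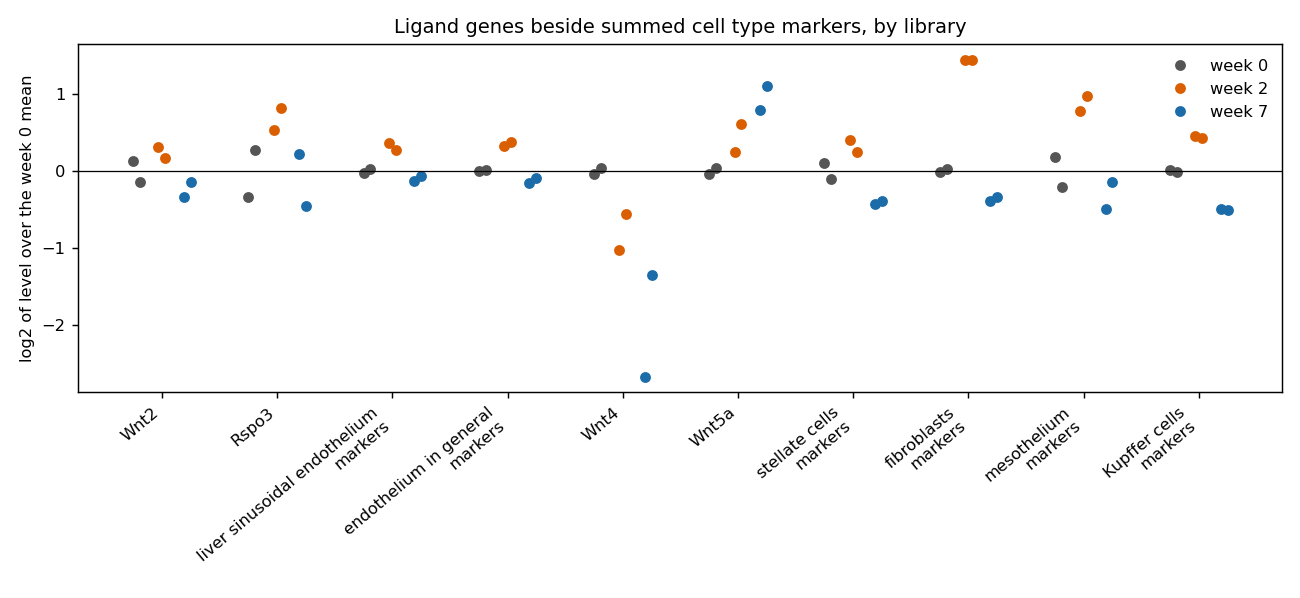
Points give the log2 of each library's level over the week 0 mean, for Wnt2, Rspo3, Wnt4 and Wnt5a and for summed marker lists of cell types, coloured by week. Wnt2 and the endothelial lists are highest at week 2, and the Rspo3 replicates lie farther apart than those of the endothelial lists. At week 7 Wnt4 lies below every summed marker list, and Wnt5a lies above 0 while the summed stellate markers lie below. Single markers are not plotted, and the stellate marker Lrat fell 4.38-fold from week 0 to week 7, against 3.64-fold for Wnt4.

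Markers of stellate cells, the vitamin A storing cells of the sinusoid wall, mostly fell from week 0 to week 7. Of 8 markers 5 fell and 1 rose between weeks 0 and 7, with a median log2 fold change of -0.845. Their summed level was 153 to 175 CPM at week 0, 194 to 215 CPM at week 2 and 121 to 125 CPM at week 7. The sum mixes markers that moved apart, since Reln, the marker that rose, went from a mean of 33.1 to 53.2 CPM between weeks 0 and 7. Lrat fell 4.38-fold and Hgf 2.93-fold there, beside 3.64-fold for Wnt4. Reln, Lrat and Hgf are named because of their values. In week 2 against week 0, 3 of the 8 were higher and 1 lower, while Wnt4 was at a lower level in both week 2 libraries. Per 100 CPM of these markers Wnt4 stood at 1.69 and 2.05 in week 0, 0.697 and 1.07 in week 2, then 0.397 and 0.952 in week 7, with both week 7 values below both week 0 values and overlapping those of week 2. Wnt5a on the same scale was 0.859 and 1.03 in week 0, 0.845 and 1.21 in week 2, then 2.20 and 2.62 in week 7. Fibroblast markers were summed at 53.6 to 54.9 CPM at week 0, 147 CPM in both week 2 libraries, and 41.5 to 42.7 CPM at week 7, with 4 of 6 higher at week 2 and 1 of 6 lower at week 7 against week 0. Mesothelium markers were summed at 2.61 to 3.43, 5.17 to 5.91 and 2.15 to 2.74 CPM, with 0 of 4 called. Kupffer cell markers were summed at 341 to 348, 462 to 471 and 243 to 244 CPM, and 5 of 7 were higher at week 2 and 7 of 7 lower at week 7, against week 0. No marker of these lists was at 0 in any library. The part of these cells in the values of Wnt4, Wnt11, Rspo1, Rspo3 and Wls was not tested.

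Across the week 2 and week 0 libraries, 1 of the 10 genes was called higher and 0 lower, where 9.81% of all genes were called higher, 8.81% lower and 18.6% in either direction. With total counts only in place of TMM, the split over all genes was 2007 higher and 913 lower, against 1508 and 1354, and the median over all genes moved from 0.014 to 0.105 on the log2 scale. Wnt11, which passed the filter only through week 2, was the gene called under either. Of the 8 genes with counts in every library, 7 had a log2 fold change above 0, and their median was 0.34. The libraries of weeks 2 and 0 did not overlap for 8 of the 10 genes, where 60.2% of all genes did not, and Porcn and Lgr4 were the pair that did. For week 7 against week 0 the count was 5 of 10, against 56% of all genes, and for week 7 against week 2 it was 8 of 10, against 61%. Wnt11 and Rspo1 are among the 8 in both comparisons with week 2. They passed the filter only through week 2, so these counts are not independent of the filter.

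Of 14 further Wnt ligand genes 8 had 0 counts in all libraries, 6 had counts and 3 had enough to test. Wnt5b, the most abundant of them, had counts of 220 and 162 in week 0, 366 and 455 in week 2, then 355 and 260 in week 7, or 1.46, 2.60 and 2.20 CPM per kb on average. Wnt2 stood at 2.20, 2.60 and 1.86 on that scale, so Wnt5b was lower at week 0 and its libraries overlapped those of Wnt2 at weeks 2 and 7, with the higher mean at week 7. It was 1.77-fold higher at week 2 than at week 0 (adjusted p = 0.0408), a call lost without any 1 of those 4 libraries (0.0521 to 0.216) and with only those 4 (0.0507), and at week 7 it was not called (adjusted p = 0.147). Wnt6 is named because of its values. The 4 libraries of weeks 0 and 2 held 0 counts of it and those of week 7 held 28 and 29, at least 2.22-fold above the week 0 floor. It passed the filter only through week 7 and missed the threshold against week 0 (adjusted p = 0.0791). DESeq2 gave 0.0128 and a fit to only the 4 libraries compared gave 0.042.

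Of 7 Frizzled genes tested 2 rose and 0 fell from week 0 to week 7, and 1 rose when any 1 library of those weeks was left out. Fzd7 had 13.4 and 14.6 CPM at week 0 and 24.5 and 22.2 at week 7, a rise of 1.67-fold (adjusted p = 0.00998), and Fzd8 rose 1.78-fold from 10.6 and 8.27 to 15.1 and 18.5 CPM (adjusted p = 0.0139). Fzd4, the most abundant Frizzled per length, had a log2 fold change of 0.05 there (adjusted p = 0.841) and was 1.42-fold higher at week 2 than at week 0 (adjusted p = 0.00953). Fzd5, chosen after its values were seen, was 2.17-fold lower at week 2 than at week 0 (adjusted p = 0.00206), at 5.39 and 4.30 against 10.6 and 10.4 CPM. Of 8 other receptors and coreceptors tested 2 rose and 0 fell from week 0 to week 7. Lrp5, a coreceptor of Frizzled, rose 1.60-fold from 36.1 and 38.0 to 60.3 and 58.6 CPM (adjusted p = 0.000523), while its relative Lrp6 had a log2 fold change of -0.10 (adjusted p = 0.536). Lgr5, an R-spondin receptor that is itself a beta-catenin target, rose from 1.26 and 1.04 to 8.24 and 12.0 CPM (adjusted p = 0.000157), and in CPM per kb it went from 0.112 to 0.984 beside 7.41 and 8.21 for Lgr4. Ryk, the most abundant of these receptors per length, was 1.19-fold lower at week 7 at an adjusted p of 0.0574, just outside the threshold. It was called lower with upper-quartile scaling (0.0408), with DESeq2 (0.0171) and with counts divided by 4 (0.0476), which makes the list 2 higher and 1 lower.

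Both ligases that clear Frizzled rose at week 7, and both are also on the target list. Neither was called when either week 0 library was left out (adjusted p = 0.0542 to 0.144), and Znrf3 was not called without either week 7 library (0.134 and 0.0528). Rnf43 rose 3.12-fold from 14.8 and 14.4 to 46.9 and 44.2 CPM (adjusted p = 0.00381) and Znrf3 rose 2.08-fold from 5.43 and 6.90 to 14.2 and 11.5 CPM (adjusted p = 0.0231). Of 6 genes of release and uptake 3 rose and 0 fell. Notum, which encodes an enzyme that strips the lipid from Wnt proteins, rose 2.18-fold from 15.8 and 18.7 to 44.3 and 31.1 CPM (adjusted p = 0.00462). It is also on the target list, so its rise is counted in both lists. Afm, which encodes the serum Wnt carrier afamin, rose 1.20-fold from 261 and 260 to 307 and 318 CPM (adjusted p = 0.00216), and the glypican gene Gpc4 rose 1.34-fold (adjusted p = 0.0139). The call on Gpc4 did not hold without week 0 replicate 2 (0.0831), week 7 replicate 1 (0.0603) or week 7 replicate 2 (0.0577). Without that last library the syndecan gene Sdc1, named here after its values were seen, was called lower (log2 fold change -0.33, adjusted p = 0.0493). Of 7 partners of Wls in the secretory route 0 rose and 2 fell, the cargo receptor genes Tmed5, 1.76-fold from 93.8 and 84.5 to 47.6 and 53.4 CPM (adjusted p = 0.00036), and Tmed2, 1.28-fold from 206 and 212 to 165 and 162 CPM (adjusted p = 0.00084).

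**Figure D4:**
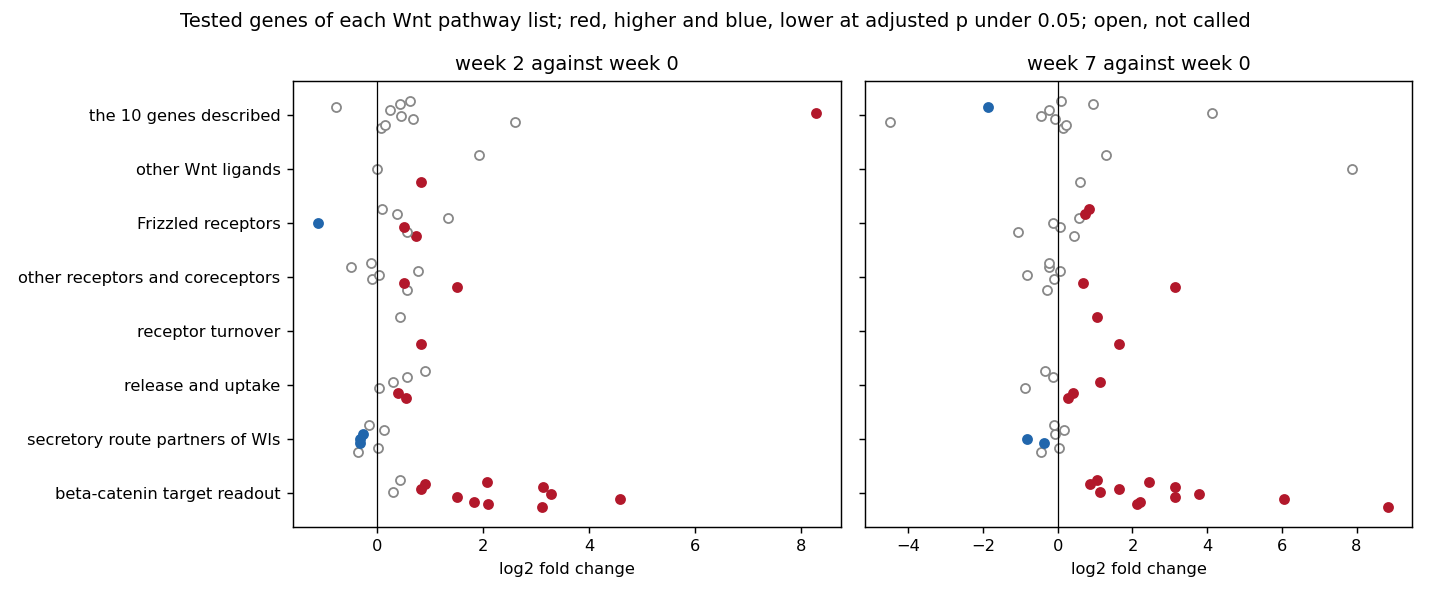
Each point is the log2 fold change of 1 tested gene at week 2 (left) or week 7 (right) against week 0, in rows by list, red for higher and blue for lower at an adjusted p under 0.05 and open where not called. All 12 targets are red at week 7 and Wnt4 is the blue point of the first row. Points beyond 4 on either side belong to genes with 0 or few counts in a group, and their position depends on the fitting. The same holds for Rspo1 at 2.61 and Apcdd1 at 3.11 in the left panel.

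The 12 targets were the pathway list with the most calls at week 7, and 10 to 12 of them were called when 1 library was left out, the exceptions being Rnf43 and Znrf3. Glul, which encodes glutamine synthetase, went from 332 and 349 CPM at week 0 to 1211 and 1205 at week 2 and 1559 and 1561 at week 7, and Nkd1, an inhibitor of Wnt signalling, from 4.35 and 3.44 to 36.6 and 39.5 and then 55.0 and 51.4. Apcdd1, a membrane inhibitor of Wnt, had 4 and 0 counts at week 0, 0.334 and 0.405 CPM at week 2, and 20.1 and 19.1 CPM at week 7. At week 2 against week 0, 10 of the 12 were higher and 0 lower, with a median of 1.95. Apcdd1 and Lef1 are among the 10, each with 4 and 0 counts at week 0, so the size of their rise is uncertain. The difference between the targets and the ligand genes was not tested.

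**Figure D5:**
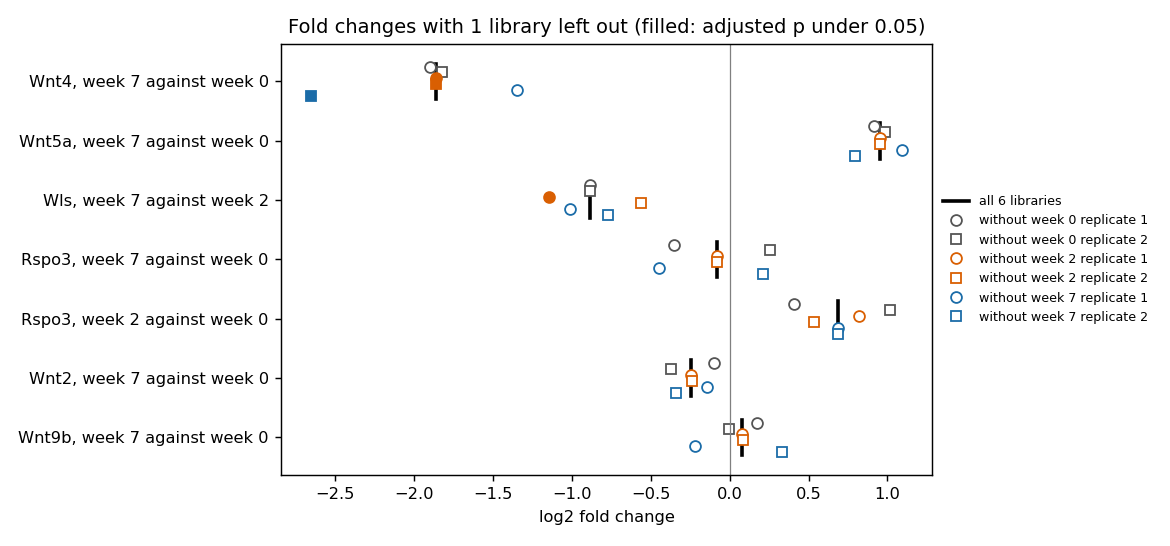
Log2 fold changes of 7 gene comparisons are plotted with all 6 libraries (black line) and with 1 library left out (points, coloured by the week of that library, filled where the adjusted p is under 0.05). Wnt4 runs from -2.65 to -1.35 without crossing 0, and Rspo3 at week 7 against week 0 crosses it, from -0.45 to 0.26.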

How the data were processed

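The deposited table holds whole-number counts per Ensembl gene for 6 libraries; the authors' values were used as estimated counts, since low values cluster at multiples of 4. Libraries were made from poly-A RNA with a TruSeq V2 kit and sequenced as read pairs, per the labels' protocols. Bowtie 0.12.2 and mm8 stand in the submitters' processing notes with no role given, and the counting program is not given in the sources used here. Symbols came from GENCODE M21 (54409 of 54446 identifiers). The 10 genes and all lists were chosen with earlier results of these data known.

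Genes were filtered with filterByExpr, scaled with TMM and tested with edgeR 4.0.16 (quasi-likelihood, all 6 libraries in 1 model with 3 residual degrees of freedom, R 4.3.3), with Benjamini-Hochberg adjustment over 15368 genes and a threshold of 0.05. Named genes were the 10 genes, then from each pathway list up to 3 called genes per direction by adjusted p in week 7 against week 0 and the most abundant per length, and the 2 nearest genes to Wnt2, Wnt9b and Rspo3. Intervals are 95%. A floor of 12 counts stands for 3 read pairs, and floors and counting errors cover counting error only. Alternatives were other scalings, no filter, DESeq2 1.42.0, only the 4 libraries compared, a replicate block, counts divided by 4 and leaving out each library. Applying them to the pathway lists and to single genes of those lists was chosen after seeing the data.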

Additional observations from a re-analysis of the deposited data

How the results depend on the processing

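With 2 libraries a week, the calls on Wnt4, Wnt11 and Wls kept their direction under every alternative that tested them but not their side of the threshold. The count of the 10 genes called was 0 to 1 when single libraries were left out, in each of the 3 comparisons. At week 2 against week 0 it was 0 with counts divided by 4, where Wnt11 was not tested. At week 7 against week 2 it was 0 with only the 4 libraries compared and 2 with DESeq2, which added Rspo1 (adjusted p = 0.04998). Rspo1 passed the filter only through week 2, so that call draws on the counts that let it be tested. With the replicate block the count was 0 at week 2 against week 0 (Wnt11 0.0807) and 0 at week 7 against week 2 (Wls 0.0714). At week 7 against week 0 the block gave 1 (Wnt4 0.0234). The block gave an adjusted p of 0.0592 for Wnt5b at week 2 against week 0, and 2436, 1702 and 2620 genes called for week 2 against 0, 7 against 0 and 7 against 2. The replicate numbers gave no sign of pairing, as the replicate differences of 2 weeks correlated at -0.017, -0.026 and -0.122 over 9170 genes. With 1 difference per week, this cannot exclude a pairing. All genes called ran from 1801 to 2752 (2862 with all libraries), 1298 to 1856 (2123) and 1842 to 2961 (3040) when 1 library was left out. Calls at week 7 against week 0 then ran from 1 to 2 for Frizzled genes and 0 to 2 for Znrf3 and Rnf43, and other Wnt ligands had 1 with DESeq2 and 1 with only the 4 libraries compared (Wnt6). The other receptors gained 1 lower call, Ryk, under upper-quartile scaling, DESeq2 and counts divided by 4, for 3 in all. Values without a call that changed sign with 1 library left out were, at week 7 against week 0, Rspo3 (0.2559 and 0.2136, range -0.4486 to 0.2559), Wnt9b (-0.0051 and -0.2206, range -0.2206 to 0.3305) and Porcn (-0.0031, range to 0.514). At week 2 against week 0 they were Porcn (-0.0787 and -0.0213, range to 0.4384), and at week 7 against week 2 Porcn (-0.0821, range to 0.2532) and Lgr4 (-0.0316, range to 0.1682). The causes were not tested. Depth limits Wnt11, Rspo1 and Wnt6 most, with 0 to 12.25 read pairs for Wnt11 in a library.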
